A study of Homo sapiens with 8 samples.

Results

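Intermediate-CpG promoters of protein-coding genes are promoter windows whose CpG content lies between that of CpG islands and that of bulk DNA. A window between positions -1500 and +1000 around the canonical transcription start site (TSS) was placed for each autosomal protein-coding gene, and its CpG observed/expected ratio, the CpG count times the length divided by the product of the C and G counts, was computed from the GRCh37 sequence. A ratio from 0.35 to below 0.6 made a window a member, which gave 4949 of 18978 promoters (26.1%). The other 9470 had a ratio of 0.6 or more and are called CpG-rich, and 4559 had a ratio under 0.35 and are called CpG-poor. The members had a median ratio of 0.522, a median GC content of 53.4% and a median of 90 CpG per window (20 to 192). Of the members, 929 overlapped the window of another gene, 120 of them a CpG-rich window, and 3540 (71.5%) had at least 95% of their 45-base substrings unique in the genome.

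MBD-seq was done on 8 neuroblastoma (NB) cell lines, which are established cultures of tumor cells of sympathetic nerve origin. N206, CHP-902R, LAN-2 and IMR-32 have amplified *MYCN* (MNA), while *MYCN* is present as a single copy in SJNB-1, CLB-GA, SK-N-AS and SH-SY5Y. Sheared genomic DNA was captured with the methyl-CpG-binding domain of MBD2, and peaks of captured fragments were called in each line. Each line is 1 sample of a culture that is untreated as far as the labels say, so that the lines of a *MYCN* group are its only replicates and p-values measure the spread between lines. A tumor cell line can carry gains and losses of chromosome arms, and the MNA lines differ from the others in their copy number around *MYCN* by definition.

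DNA methylation in mammals is found mostly at the cytosine of CpG. CpG islands at promoters are usually free of methylation, whereas CpG-poor DNA is usually methylated. Promoters between these classes hold many genes of germ cells and of differentiated tissues, and they are known for methylation that differs between cell types and that is acquired in tumors. MBD capture needs methylated CpG close together, so that a methylated stretch with few CpG may give no peak.

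The sequences that the peaks shared show what was captured. Each line below gives, 5′ to 3′ along the gene's strand, a stretch of at most 200 bases without UTR exons that lay under the most peaks of the window, with every CpG in capitals. The first 3 are the members with a peak in all 8 lines and the highest mean rank of peak score, and the last is one of the members with peaks in every MNA line and no single copy line.
*KCNV2*: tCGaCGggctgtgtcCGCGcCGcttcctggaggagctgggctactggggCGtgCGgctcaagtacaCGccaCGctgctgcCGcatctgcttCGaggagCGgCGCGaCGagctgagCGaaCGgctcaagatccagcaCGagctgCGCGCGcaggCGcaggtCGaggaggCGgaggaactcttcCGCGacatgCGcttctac
*MAEL*: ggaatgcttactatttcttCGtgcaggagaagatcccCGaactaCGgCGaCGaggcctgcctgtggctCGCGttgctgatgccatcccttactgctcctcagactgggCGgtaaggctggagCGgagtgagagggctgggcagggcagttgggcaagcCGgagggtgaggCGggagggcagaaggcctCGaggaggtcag
*CCER1*: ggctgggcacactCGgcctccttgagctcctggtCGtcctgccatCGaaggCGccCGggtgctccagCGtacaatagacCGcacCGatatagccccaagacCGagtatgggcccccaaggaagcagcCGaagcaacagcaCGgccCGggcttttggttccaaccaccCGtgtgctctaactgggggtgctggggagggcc
*PYCARD*: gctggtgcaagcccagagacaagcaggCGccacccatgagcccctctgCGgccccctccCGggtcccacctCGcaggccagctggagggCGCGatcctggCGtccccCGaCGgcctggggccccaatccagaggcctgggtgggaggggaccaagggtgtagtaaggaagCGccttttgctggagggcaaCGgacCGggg

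The *KCNV2* stretch (chr9:2718257-2718456, plus strand, GRCh37) is coding exon, starts 747 bp after the TSS and holds 27 CpG. The *MAEL* stretch (chr1:166958612-166958811, plus strand) starts 95 bp after the TSS, spans the end of a coding exon and the start of an intron, and holds 12 CpG. The *CCER1* stretch (chr12:91348248-91348447, minus strand) is coding exon with 13 CpG. These 3 stretches lay wholly under a peak in all 8 lines. The *PYCARD* stretch (chr16:31214136-31214335, minus strand) is upstream of the TSS with 12 CpG. It lay wholly under a peak in the 4 MNA lines and under none in the single copy lines.

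The lists held 70816 to 112412 peaks, with every MNA list longer than every single copy list (exact permutation test, two-sided, p = 0.0286, the lowest value possible with 4 lines per group). Within 1 Mb of *MYCN*, peaks covered 8.68% to 19.8% of the bases in the MNA lines and 1.87% to 4.76% in the single copy lines, and the groups did not overlap, as the labels give them. The lists hold no read counts, so no interval can be given for a single peak, and a promoter without a peak is one without a peak at an unknown depth. IMR-32 had the highest share of promoters with a peak in all classes together (22.1%, against 14.7% to 18.3% in the other lines), and results were computed again without each line.

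A peak overlapped 19.9% ± 3.06 of the intermediate-CpG promoters (SD, n = 8). In the MNA lines this share was 26.5% in IMR-32, 20.5% in LAN-2, 18.8% in CHP-902R and 18.1% in N206. In the single copy lines it was 21.9% in SH-SY5Y, 18.4% in SK-N-AS, 17.7% in CLB-GA and 17.5% in SJNB-1. IMR-32 stood highest and the groups overlapped. CpG-rich promoters had a peak in 17.2% ± 2.98 and CpG-poor promoters in 12.2% ± 1.43 (SD, n = 8). Within each line the members were higher than both classes, by 2.69 percentage points ± 0.620 over CpG-rich promoters and by 7.73 ± 2.29 over CpG-poor promoters (SD, 8 of 8 lines; two-sided exact sign-flip test over lines, p = 0.0078, the smallest it allows, adjusted p = 0.0100 over 9 tests). Capture depends on CpG number, and the classes differ in it by construction. Among promoters with at least 80 but fewer than 120 CpG, the 2546 members had a peak in 20.4% ± 3.52 and the 2293 CpG-rich promoters in 16.3% ± 2.78. The 52 CpG-poor promoters with as many CpG had a peak in 18.5% ± 5.13. Among promoters with 40 to 79 CpG, the direction turned, with 18.9% ± 2.86 of 1593 members and 24.2% ± 2.70 of 1252 CpG-poor promoters (SD, n = 8; two-sided exact sign-flip test, p = 0.0156). The order of members and CpG-poor promoters thus depended on the CpG number at which they were compared.

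**Figure D1:**
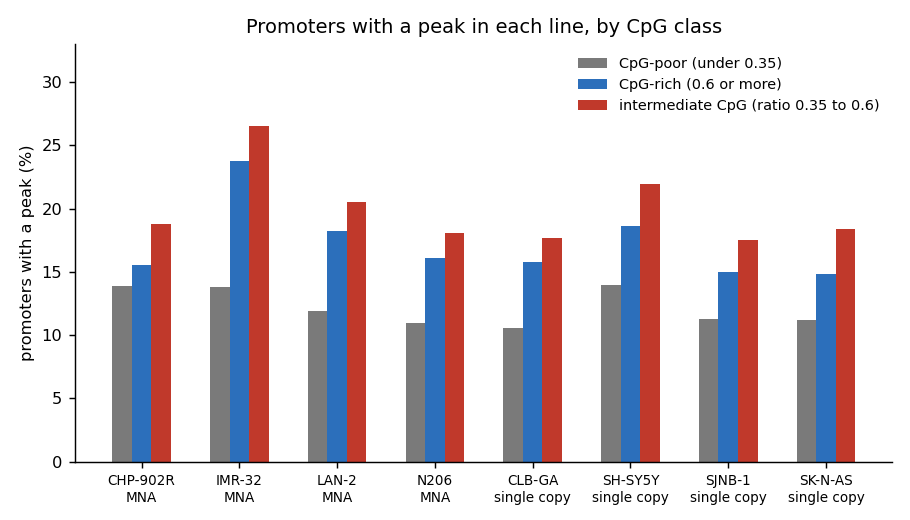
Bars show, for each of the 8 lines, the percentage of promoters with at least 1 peak in the CpG-poor, CpG-rich and intermediate-CpG classes. The intermediate bar is the highest in every line, from 17.5% in SJNB-1 to 26.5% in IMR-32.

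Most members had a peak in few lines or in none. Of the members, 2215 (44.8%) had a peak in no line, against 50.1% of all promoters, and 2734 (55.2%) in at least 1 line, against 49.9%. A peak in at least 2 lines was found in 1820 members (36.8%, against 31.6%), in at least 4 lines in 861 (17.4%, against 13.5%), and in all 8 lines in 78 (1.58%, against 0.991%). Of CpG-rich promoters 93 (0.982%) and of CpG-poor promoters 17 (0.373%) had a peak in all 8. In 914 members (18.5%, against 18.3%) the peak was in 1 line only. The share of members among all promoters with a peak was 30.6% to 32.2% depending on the line.

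Inside the windows, members had more of their bases under peaks around and after the TSS than at the upstream end. Peaks covered 5.88% ± 1.72 of the bases within 250 bp of the TSS, 3.86% ± 0.721 of the 500 bp at the upstream end and 5.37% ± 1.41 of the 500 bp at the downstream end (SD, n = 8). TSS cover exceeded upstream cover by 2.01 percentage points ± 1.32 and downstream cover exceeded it by 1.51 ± 1.03 (SD, 8 of 8 lines each; two-sided exact sign-flip tests, p = 0.0078, adjusted p = 0.0100). CpG-rich promoters had the opposite order of cover, with 1.92% ± 0.867 at the TSS and 5.97% ± 0.990 upstream. CpG-poor promoters had the same order as members, with 3.59% ± 0.590 at the TSS, 1.59% ± 0.306 upstream and 3.30% ± 0.620 downstream. The order was thus not particular to the members. At the TSS members exceeded CpG-rich promoters by 3.95 percentage points ± 0.890 and CpG-poor promoters, with 3.59% ± 0.590, by 2.29 ± 1.4 (SD, n = 8; exact sign-flip tests, p = 0.0078, adjusted p = 0.0100; both comparisons were chosen after seeing the data). With at least 80 but fewer than 120 CpG the TSS cover was 5.51% ± 1.63 in members and 2.56% ± 1.08 in CpG-rich promoters. With 40 to 79 CpG it was 7.48% ± 2.10 in members and 7.99% ± 1.14 in CpG-poor promoters, a difference within the spread between lines (exact sign-flip test, p = 0.445). A peak touched the 500 bp around the TSS in 8.55% ± 2.20 of the members, 3.40% ± 1.46 of CpG-rich and 5.98% ± 0.816 of CpG-poor promoters. Of the members with a peak, 42.4% ± 4.90 had one there, against 19.1% ± 4.60 in the CpG-rich and 49% ± 1.92 in the CpG-poor class.

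**Figure D2:**
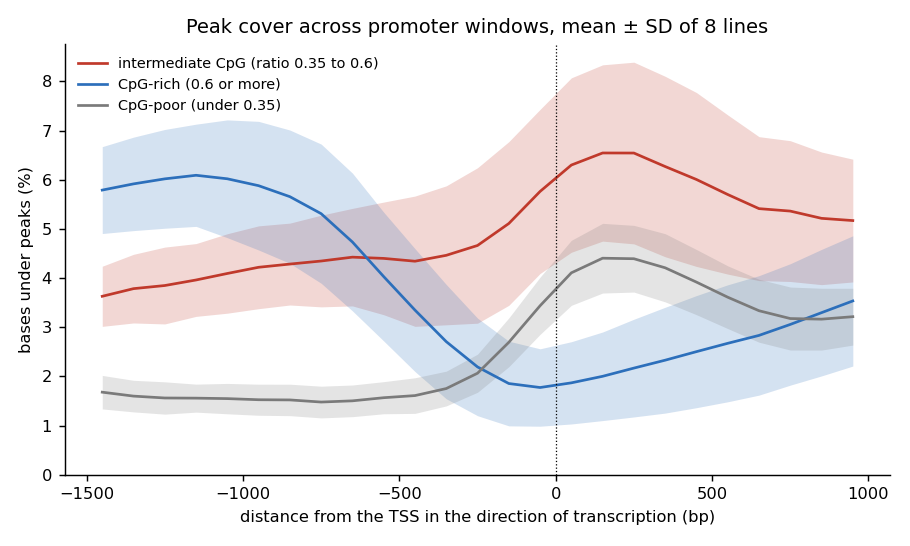
Lines show the percentage of bases under peaks in 100-bp steps along the window for the 3 classes, as the mean of 8 lines with a band of 1 SD, against the distance from the TSS in bp. Members rise to 6.55% just after the TSS, where CpG-rich promoters are near their lowest value of 1.78%.

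By annotation, coding exons of the members' own genes were on average the most covered. Peaks lay over 14.1% ± 2.67 of the coding exon bases, 6.23% ± 1.88 of the 5′ UTR exon bases, 4.36% ± 1.00 of the bases upstream and 4.15% ± 1.32 of the intron bases (SD, n = 8). Coding exons ranked first among these 4 in each line. Bases in 3′ UTR exons or beyond the gene were 0.288% of the total and had 11.1% ± 3.13 under peaks. In SH-SY5Y that part had 17.7%, above the 15.3% of coding exons. Coding exons held 6.48 CpG per 100 bp, fewer than the 7.80 of the 5′ UTR exons and more than the 3.02 upstream and the 3.69 of introns. Bases of the members under peaks had 4.98 CpG per 100 bp ± 0.252 and the rest 3.61 ± 0.0217 (SD, n = 8). Relative to all autosomal bases, the cover of the members was 2.67-fold ± 0.428, against 2.01-fold ± 0.397 for CpG-rich and 1.4-fold ± 0.169 for CpG-poor promoters.

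Along the CpG ratio the share fell within the class. It was 23.7% ± 2.49 at a ratio of 0.35 to 0.4 (499 promoters), 21.7% ± 3.31 at 0.4 to 0.45 (616), 20.9% ± 3.30 at 0.45 to 0.5 (887), 18.2% ± 3.40 at 0.5 to 0.55 (1253) and 18.9% ± 3.29 at 0.55 to 0.6 (1694) (SD, n = 8). From the lowest to the highest of these steps the share fell by 4.85 percentage points ± 2.90 (SD, two-sided exact sign-flip test, p = 0.0078, adjusted p = 0.0100). With windows that overlap no other the fall was 2.76 points and did not pass the test (exact sign-flip test, p = 0.0547). With mappable windows alone the share fell by 8.98 points (exact sign-flip test, p = 0.0078), and with peaks scoring 100 or more it fell by 1.24 points (exact sign-flip test, p = 0.0469). TSS cover went from 9.92% ± 1.37 in the lowest step to 4.12% ± 1.73 in the highest, while upstream cover went from 3.35% ± 0.997 to 4.60% ± 0.926. The median CpG number went from 62 to 103 over the same steps. Neither limit of the class marked a jump, with 21.8% ± 2.94 just below 0.35 (128 promoters) and 23.2% ± 2.80 just above (107), and 18.7% ± 4.04 just below 0.6 (359) and 18.3% ± 2.42 from 0.6 on (340).

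**Figure D3:**
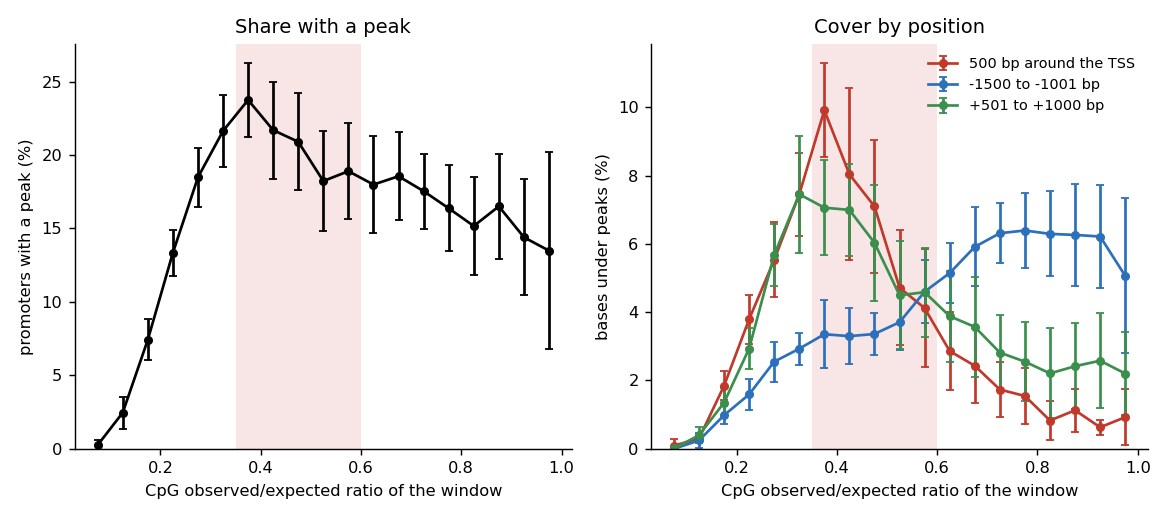
Points are means and bars 1 SD over 8 lines for promoters in steps of 0.05 of the CpG ratio, with the intermediate class shaded, for steps of at least 50 promoters. The left panel gives the percentage with a peak, which is highest at 0.35 to 0.4 (23.7%), and the right panel the bases under peaks at the TSS, upstream and downstream, where the TSS curve falls from 9.92% to 4.12% across the class and the upstream curve rises.

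The 78 members with a peak in all 8 lines were ordered by the rank of their best peak in each list. *KCNV2*, a silent subunit of potassium channels known from photoreceptors, led them with a mean rank of 99.2 on a scale on which 100 is the highest peak score of a list. Peaks covered 919 bp of its window in CHP-902R, 945 bp in IMR-32, 948 bp in LAN-2 and 689 bp in N206. In the single copy lines they covered 912 bp in CLB-GA, 854 bp in SH-SY5Y, 561 bp in SJNB-1 and 573 bp in SK-N-AS. The MNA and single copy ranges overlapped. *SLC45A2* (window chr5:33983798-33986298), a transporter of the melanosome that is needed for pigment, had the widest cover of the leading members. It was 1163 to 2034 bp in the MNA lines and 1015 to 1547 bp in the single copy lines. *CCER1* had 1085 to 1293 bp under peaks in the MNA lines and 965 to 1347 bp in the single copy lines. *GMPPA*, a sugar nucleotide enzyme, and *SPEGNB* had peaks of the same score in every line, so that these neighbours on chromosome 2 shared peaks that reached into both windows. Other leading members were ENSG00000254706, *AMIGO1*, an adhesion protein of neurons, the receptor *GPR25*, *SMIM41* and ENSG00000268361, with mean ranks of 90.9 to 96.5. By bases under peaks, *SYT15* was first with a mean of 1678.5 bp per line, followed by *PRLH*, a prolactin-releasing hormone, with 1623.5 bp. The *SYT15* window overlaps that of *SYT15B*, so the cover of this pair is not independent. *PPP1R27* reached the whole window of 2501 bp in SH-SY5Y and had no peak in N206.

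Germ cell and meiosis genes stood high among the lists, with a median of 5 lines per promoter against 1 for all members. Of 78 genes of the list that were measured, 37 were members, and 24 of these (64.9%, against 17.4% of all members) had a peak in at least 4 lines. Of these members 6 had a peak in all 8 lines and 5 in none. The share with a peak was 55.1% ± 6.29 and ran from 48.6% in SH-SY5Y and SJNB-1 to 67.6% in CHP-902R. Their TSS cover was 43.5% ± 7.41 (SD, n = 8), against 5.88% for all members. *MAEL*, a factor of transposon silencing in the male germ line, had 594 to 1128 bp under peaks in the MNA lines and 604 to 993 bp in the single copy lines. *SPO11* (window chr20:55903359-55905859), the enzyme that makes the DNA breaks of meiosis, had 674 to 1063 bp in the MNA lines and 637 to 1191 bp in the single copy lines. *DDX4*, the RNA helicase of germ cells also called VASA, had 354 bp in LAN-2 at the lowest and 1333 bp in CHP-902R at the highest. *SYCE1*, of the synaptonemal complex that joins paired chromosomes, *TERB1*, which ties telomeres to the nuclear envelope in meiosis, and *PIWIL2*, a piRNA-binding protein, also had a peak in all 8 lines. By contrast *GTSF1* and *PIWIL3*, of the same piRNA pathway, and *PRAME*, an antigen of testis and tumors, had no peak in any line. The 24 CpG-rich promoters of the list had a peak in at least 4 lines in 20 cases (83.3%, against 13.9% of all CpG-rich promoters). The 17 CpG-poor ones did so in 4 (23.5%, against 8.66% of all CpG-poor promoters). The high counts of this list were thus not particular to the members. In the 300 bp from 250 bp before to 49 bp after the TSS, CACGTG, the palindromic E-box, was found in 13 of the 37 germ cell members (35.1%), against 9.21% of all members and 8.70% of all promoters. GGCGGGAA, searched on both strands, a sequence of the E2F type, was found in 7 (18.9%), against 4.08% and 4.30%. Of the other motifs searched, TATAAA was found in 4 (10.8%), against 6.22% and 9.65%. GGGCGG was less frequent, in 17 (45.9%), against 66.6% and 61.8%, and TGACGTCA was found in 0 (0%), against 2.97% and 2.71%. A match is a description of the letters only.

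Genes of other differentiated tissues varied from gene to gene. The median member had a peak in 5 lines among keratins, 4 among liver-secreted plasma proteins, 3.5 among T and B cell surface genes, 3 among myeloid and granule genes, 1 among serpins and 0 among chemokines and olfactory receptors, against 1 for all members. Most genes of the keratin, liver, T and B cell and myeloid lists had CpG-poor promoters. Of these, 8 of 51 (15.7%), 3 of 52 (5.77%), 2 of 33 (6.06%) and 1 of 35 (2.86%) had a peak in at least 4 lines. Of all CpG-poor promoters 8.66% did. Among 4 keratins, *KRT7* had a peak in 6 lines, *KRT72* in 4 and *KRT18* in 2. Among 7 liver-secreted plasma proteins, 5 had a peak in at least 4 lines, with *APOB*, the main protein of low-density lipoprotein, and *APOH* in 7 lines each, while the clotting factor *F11* had none. Of 6 T and B cell surface genes, *CD247*, the zeta chain of the T cell receptor complex, and *CD40*, the costimulatory receptor of B cells, had a peak in all 8 lines. Of 5 myeloid and granule genes, *CD14*, the co-receptor for bacterial lipopolysaccharide, had one in all 8 lines and the other 4 in 3 lines or fewer. In the shorter lists the counts can be read only against all members, of which 17.4% had a peak in at least 4 lines and 44.8% in none. Of 7 chemokines 0 had a peak in at least 4 lines and 5 had none, among them *CXCL1*, *CXCL2* and *CXCL3*, which attract neutrophils. Of 7 serpins, a family of protease inhibitors, none reached 4 lines and *SERPINB5*, or maspin, had a peak in N206 only. Of 11 olfactory receptors 7 had no peak, and of 4 keratin-associated proteins none reached 4 lines. Among the olfactory receptor windows without a peak were ones with 14.1% and 18.8% of their 45-base substrings unique in the genome. A missing peak there says little. Of 6 interleukins and interferons, *IFNL4* had a peak in 7 lines and *IL11* in 4. Of 7 cytochrome P450 enzymes, *CYP1A1*, which oxidizes aromatic hydrocarbons, had a peak in 5 lines and 3 had none. Both chemokine receptors had a peak in 1 line, and *SULT1B1*, the member among the conjugating enzymes, in no line. None of the S100 genes was a member.

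Of 9 members of the catecholamine and adrenergic list, genes of the sympathetic lineage from which NB derives, 6 had no peak in any line, against 44.8% of all members, and the median was 0 lines against 1. These are few genes. Of the 23 CpG-rich promoters of the list 8 had no peak, against 48.1% of all CpG-rich promoters. The share with a peak was 20.1% ± 8.68 in these 23, against 17.2% ± 2.98 in that class (SD, n = 8). The members without a peak included *CHGA* and *CHGB*, proteins of secretory granules, and the receptor kinase *ALK*. *GATA2*, a transcription factor, had a peak in N206 only. *PRPH*, the peripheral neuron filament peripherin, had the most with 6 lines. It is also one of the study's markers.

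Of the adhesion, matrix and membrane gene lists, collagens and protocadherins had a median of 2 lines per member, and epithelial adhesion genes, ion channels, solute carriers and zinc finger genes a median of 1, as had all members. Of 14 epithelial adhesion genes 3 had a peak in at least 4 lines, among them *CLDN4*, a tight junction protein, in 7 lines and *RAB25* in 6. This share of 21.4%, like the 20% of ion channels and the 20.8% of solute carriers, lay near the 17.4% of all members. Of 18 collagens 5 did so, and *COL1A2*, a chain of type I collagen, had a peak in all 8 lines with 372 to 1573 bp under peaks. Of 26 clustered protocadherins 7 did so, *PCDHGA6* in all 8 lines, whereas *PCDHB15*, *PCDHB8* and *PCDHGA3* had none. Of 35 ion channels 7 did so, with *KCNV2*, *CACNG1* and *KCNH6* in all 8 lines and 16 channels in none. Of 106 solute carriers 22 (20.8%) and of 244 zinc finger genes 30 (12.3%) did so, and 102 zinc finger genes had no peak, a share near the 44.8% of all members. Of 17 ribosomal protein genes 4 did so and 11 had no peak. *RPL10L*, a testis paralog of *RPL10*, had the most lines among them with 6. Of 8 histone genes *H1-7*, the linker histone of spermatids, had a peak in all 8 lines and the others in 3 or fewer. Of 4 death receptor and caspase genes, *TNFRSF10D* had a peak in 5 lines and *TNFRSF10C* in 4, both decoy receptors of the ligand TRAIL.

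**Figure D4:**
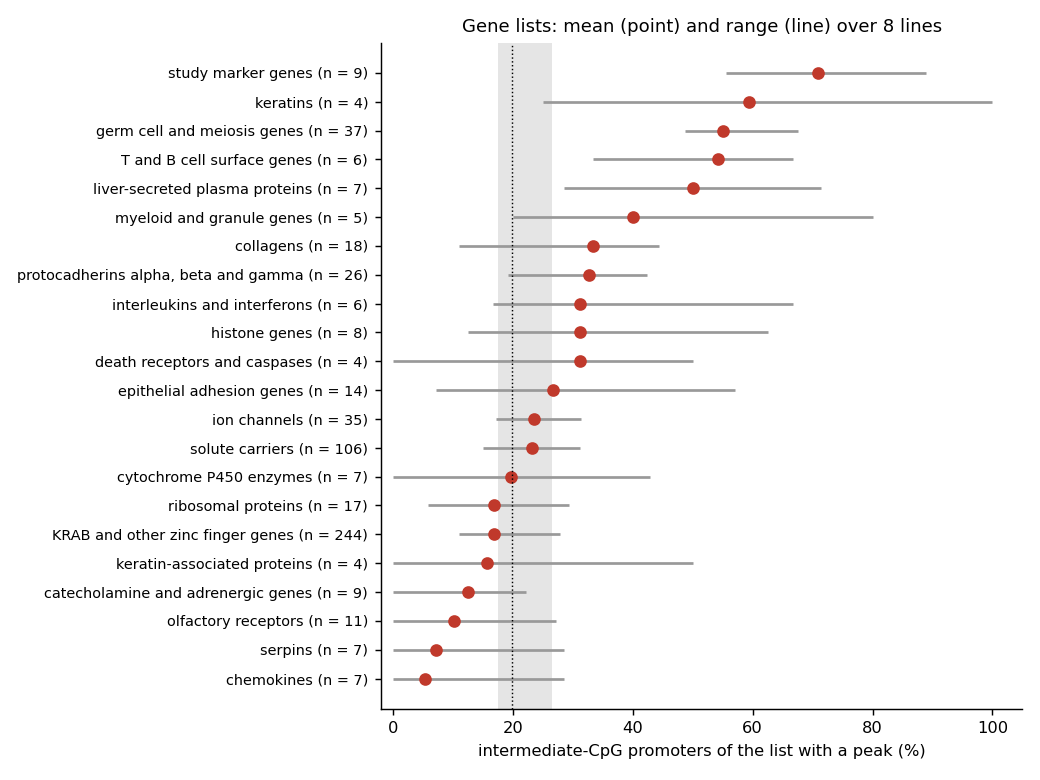
Points give the mean and lines the range over 8 lines of the percentage of intermediate-CpG promoters of each list with a peak, for lists with at least 4 such promoters, and the grey band the range of all 4949 members (17.5% to 26.5%). Germ cell and meiosis genes (37 promoters, mean 55.1%) lie above the band in every line, and chemokines (7 promoters, mean 5.36%) reach above it in 1 line.

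All 9 study marker genes that are members had a peak in at least 4 lines, against 17.4% of all members. Of the CpG-rich promoters of study markers 5 of 8 did so, against 13.9% of all CpG-rich promoters. Of the CpG-poor ones 1 of 3 did so, against 8.66% of all CpG-poor promoters. The study markers are genes that the study names beside a methylation-specific PCR or expression result, or as methylation markers known from earlier work. *RASSF1* and *ZMYND10* are of the latter kind. Some of the study markers were chosen with these peak lists, so these counts are not independent evidence. *KRT19*, an epithelial keratin, had peaks over 1251 to 1815 bp in the 4 MNA lines, 759 to 1476 bp in 3 single copy lines and none in CLB-GA. *RASSF1*, a tumor suppressor of Hippo signaling, had 933 to 1234 bp in the MNA lines, 537 to 1186 bp in 3 single copy lines and none in CLB-GA. *TGFBI*, a matrix protein, had a peak in every line but CHP-902R. *PRPH* had 1232 bp in CHP-902R, 1180 bp in IMR-32 and 1021 bp in SJNB-1, but 6 to 234 bp in the other 3 lines with a peak. *QPCT*, glutaminyl cyclase, and *TNFRSF10D* had peaks in 5 lines each, and *ZMYND10*, an assembly factor of ciliary dynein, in 4, of which 3 are MNA.

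Between the *MYCN* groups the intermediate-CpG promoters as a class did not differ beyond the spread between lines. The share with a peak was 21.0% ± 3.82 in the MNA lines and 18.9% ± 2.07 in those with single copy *MYCN* (SD, n = 4 each), a difference of 2.10 percentage points (two-sided exact permutation test, p = 0.457, adjusted p = 0.514). When every list was shortened to its 70816 peaks of highest score, the difference turned to -0.146 percentage points (exact permutation test, p = 0.971). Pairs of lines shared members with a peak to a similar degree inside and between the groups. The Jaccard index, the members with a peak in both lines divided by those with a peak in either, had a median of 0.302 over 28 pairs (0.269 to 0.345), with a mean of 0.301 within and 0.301 between groups (exact permutation test over lines, p = 1). A peak in at least 3 lines of each group was found in 294 members (5.94%, against 4.12% of all promoters).

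A peak in every MNA line and no single copy line was found in 7 members (0.141%, against 0.0843% of all promoters), and the reverse in 2 (0.0404%, against 0.0474%). Both counts are small, out of 16 and 9 such promoters in all. A two-sided Fisher's exact test per promoter gave p = 0.0286, again the lowest possible value, for these 9 members and for 25 promoters in all (0.132%). After Benjamini-Hochberg adjustment over 18978 promoters 0 passed (0%). This lowest value could pass only if most promoters separated the groups, so the adjusted test could not single out any promoter. *ACSS3*, a mitochondrial acyl-CoA synthetase and one of the study's markers, had 1172 bp under peaks in CHP-902R, 601 bp in IMR-32, 786 bp in LAN-2 and 783 bp in N206, and none in the single copy lines. *PYCARD*, the ASC adaptor of inflammasomes, had 1135 bp, 1573 bp, 1476 bp and 670 bp in the same lines. *MNS1*, a protein of meiosis and of motile cilia, had 380 to 1081 bp and *MRPL19*, of the mitochondrial ribosome, 285 to 684 bp. *ZNF208*, *CNP*, an enzyme of myelin, and *RARRES2*, which encodes chemerin, had peaks at lower score ranks or over shorter stretches, with as little as 62 bp for *CNP* in CHP-902R. In the single copy lines, *SECTM1* (window chr17:80290642-80293142), a secreted protein that binds the T cell antigen CD7, had 2070 bp in CLB-GA, 863 bp in SH-SY5Y, 2203 bp in SJNB-1 and 808 bp in SK-N-AS. *PDLIM4*, an actin-binding LIM protein, had 486 to 690 bp in these lines. Leaving out a line removes a condition, so by construction the MNA-only and single-copy-only counts can only stay or rise. Without CHP-902R the MNA-only count was 24, without N206 17, without LAN-2 15, without IMR-32 14 and without CLB-GA 11. It was 10 without SH-SY5Y, 9 without SK-N-AS and 7 without SJNB-1. The single-copy-only count was 11 without SK-N-AS, 7 without CLB-GA or LAN-2, 6 without SJNB-1 or CHP-902R and 5 without SH-SY5Y. It was 3 without IMR-32 or N206. Near *MYCN* itself, the promoter of *NBAS* had a peak in SH-SY5Y only and that of *CYRIA* in N206 and CLB-GA.

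**Figure D5:**
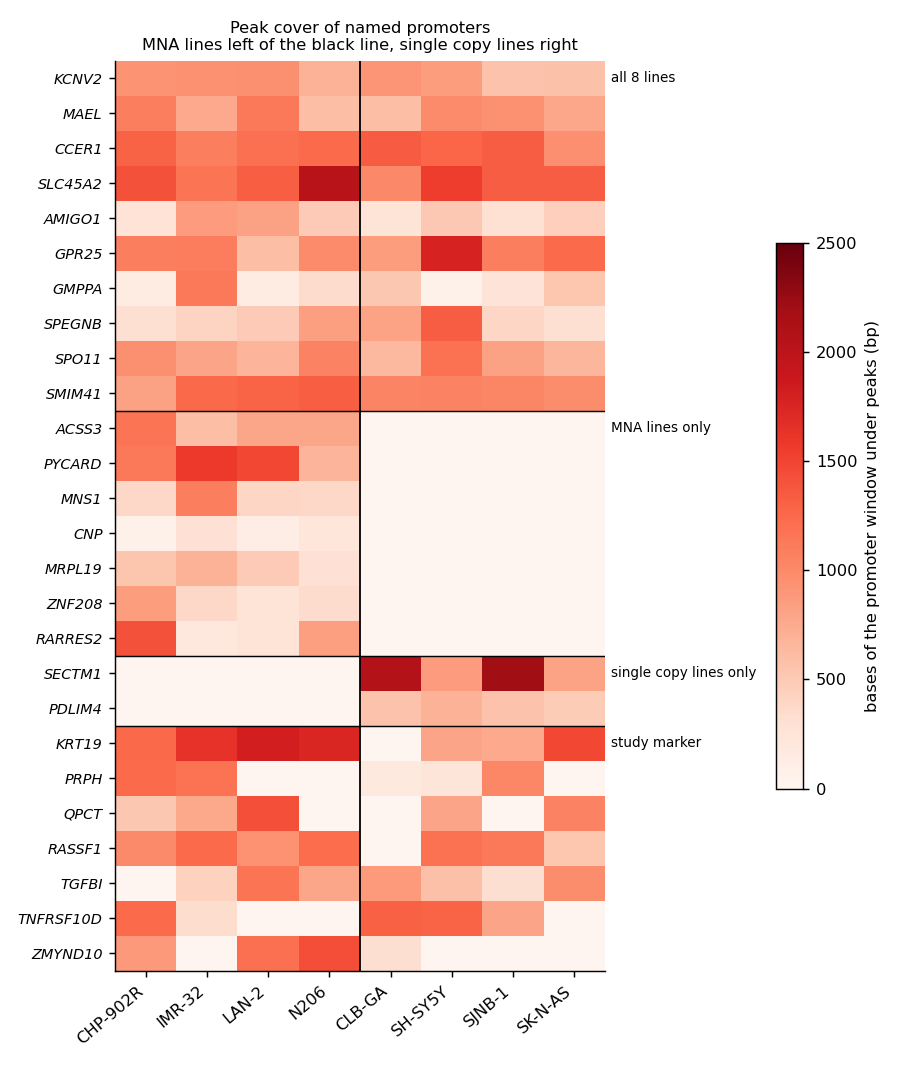
Colour gives the bases of the 2501-bp window under peaks for named promoters (rows) in the 8 lines (columns), with the MNA lines left of the black line. *ACSS3* to *RARRES2* have cover in the 4 MNA lines alone, *SECTM1* and *PDLIM4* in the 4 single copy lines alone, and the study markers below vary across both groups.

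Between 65 members in CLB-GA and 222 in IMR-32 had a peak in that line alone, which was 7.42% and 16.9% of the members with a peak in the line. Of those with the highest score ranks, *LRATD1* had 1278 bp in IMR-32, *TOM1L1* 1047 bp in LAN-2 and *HPCAL4*, a neuronal calcium sensor, 774 bp in SH-SY5Y. *MYL2*, the cardiac myosin light chain, had 1286 bp in CLB-GA and *HTR1E*, a serotonin receptor, 505 bp in SK-N-AS. *SMPD1*, acid sphingomyelinase, had 179 bp in CHP-902R, *DNAJC19* 231 bp in N206 and *RAB13* 98 bp in SJNB-1, so several such peaks covered little of the window. By chromosome, the mean share of members with a peak lay between 14.9% on chromosome 6 and 24.3% on chromosome 5.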

How the data were processed

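MBD-seq peaks of 8 NB cell lines were analysed, 4 MNA and 4 *MYCN* single copy, grouped by the labels. The authors aligned the read pairs to GRCh37 with Bowtie 0.12.7, ran MACS on each line separately, and deposited peak positions with a score. This score is 10 times the negative log10 of the p-value that MACS gave a peak, with 50 as the lowest value, and was used only to rank or filter peaks within a list. Peak calling options and an input control are not given in the sources used here. Read counts are not part of these files, which leaves the depth under each peak unknown.

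Windows were placed around the canonical TSS of GENCODE release 44 in GRCh37 coordinates. Of 19229 autosomal protein-coding genes, 18978 had one. A peak overlapping a window by 1 bp counted as present. Computation used Python 3.11.15, numpy 2.4.6, scipy 1.17.1, pandas 2.3.3, pysam 0.24.0 and numba 0.67.0. Classes were compared within lines by two-sided exact sign-flip tests and *MYCN* groups by two-sided exact permutation tests, with p-values adjusted over 9 tests by Benjamini-Hochberg, and single promoters by Fisher's exact test. The step that finds separating promoters was tested on simulated data.

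The members and the 25 gene lists were chosen with earlier results of these data known. Named genes are the 15 leading members with a peak in all lines, those separating the groups, the study's markers, up to 6 members of each list with the most lines and 3 with none, the 6 with the widest cover, up to 3 per line with a peak in that line only, and those within 1 Mb of *MYCN*. Alternatives were a score of at least 100, equal numbers of peaks, the peak midpoint, 250 bp of cover, another window, start site or ratio range, windows without overlap, mappable windows, each line left out and, chosen after seeing the data, promoters matched on CpG number. Some genes and sequences that this rule covers are not reported here.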

Additional observations from a re-analysis of the deposited data

Results flagged for a closer look

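In SH-SY5Y, peaks covered 5.81% of the bases of the intermediate-CpG promoters, against 3.94% to 4.18% in the other 3 single copy lines. It stood apart from the other lines of its group by 0.872 of the group's range, above Dixon's 95% critical value for 4 values. This was 1 of 20 sets of values examined in this way, and chance marks about 1 in 20.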

How the results depend on the processing

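The *MYCN* groups could not be compared in pairs because the labels give no replicate numbers and the groups are made of different cell lines. Classes and positions were compared within each line. Of 120 values under alternatives other than leaving out a line, 101 were counted as unchanged. For tested results this meant the same direction and call, though not always the same size. For untested counts and the member share it meant a change within a set limit. With a score of at least 100, 5.46% of the members had a peak, 5 in all lines and 3893 in none. With fewer peaks these values can only change in this direction, by construction. The counts of 2 in MNA lines only and 0 in single copy lines only could have moved either way. The difference in Jaccard index within minus between *MYCN* groups was then 0.000276, against -2.78e-05. With the same filter the share difference was 1.06 points over CpG-rich and 2.98 over CpG-poor promoters, the TSS cover difference 1.49 points over CpG-rich promoters, and the change along the ratio -1.24 points. With equal numbers of peaks, 49 members had a peak in all lines and 4 in MNA lines only, and the share by *MYCN* turned to -0.146 percentage points. The peak midpoint gave a share of 16.1%. The window to +500 bp gave 3 MNA-only members. The ratio of 0.4 to below 0.55, with fewer promoters, gave 46 all-line, 1235 no-peak, 4 MNA-only and 1 single-copy-only members. Mappable windows gave a Jaccard difference of 0.00213. Windows that overlap no other gave -2.76 points for the change along the ratio, and mappable windows -8.98. With 40 to 79 CpG, the share against CpG-poor promoters was -5.37 points and the TSS cover -0.519 points. The causes were not tested. Leaving out each line in turn gave 7 to 24 MNA-only, 3 to 11 single-copy-only, 87 to 98 all-line and 2280 to 2437 no-peak members. By construction these counts can only stay or rise when a line is left out. The same runs gave a share of 19.0% to 20.3%, a share by *MYCN* of 0.263 to 3.12 points and a Jaccard difference of -0.00503 to 0.00304. The differences between classes and positions passed the exact sign-flip test in each such run (p = 0.0156, the smallest that 7 lines allow).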
